A study of Mus musculus with 2 samples.

Results

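Valleys are short stretches with few 5-hydroxymethylcytosine (5hmC) fragments that lie between close 5hmC peaks in mouse kidney DNA. They were chosen by measured values. A valley is a gap of 500 to 3000 bp between consecutive peaks of the authors' list on chromosomes 1 to 19 that holds at least 5 input fragments and has a ratio under 0.5. The ratio is the share of all hMeDIP fragments that fall in the gap divided by the share of all input fragments that do, so that a ratio of 1 is the mean of these libraries over the genome. The 92319 autosomal peaks left 92300 gaps, of which 27227 had the required length and 14228 also held the required input. Of these 14228, 1315 were valleys, a share of 9.24%. The remaining 12913 are called the other gaps below. The count of valleys was 826 of 14228 (5.81%) with shares taken relative to fragments outside peaks, and 793 of 10762 (7.37%) with 0.5 of a fragment length left out next to each peak.

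The DNA came from kidneys of male C57BL/6 mice, an inbred laboratory strain, aged 6 weeks. The groups are 1 hMeDIP library, made by immunoprecipitation with an antibody against 5hmC from Active Motif, and 1 input library of kidney DNA from mice of the same strain, sex and age, sequenced without antibody. Neither carries a transgene or treatment in the labels, and the labels do not give the number of animals. The depth was 11424027 hMeDIP and 8316507 input fragments. Neither group was replicated, so no test between groups could be made, and all intervals are 95% intervals for counting error alone. Where fragments count more than once, as said below, the intervals are too narrow even for that. The files hold no expression values, so the labelled tissue could not be checked against marker genes.

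5hmC is made from 5-methylcytosine by the TET dioxygenases and is either kept as a lasting mark or oxidised further towards demethylation. In differentiated tissues it is known to be frequent in gene bodies and around active enhancers and to be scarce in CpG-rich promoters that carry no methylation. The antibody recovers DNA that carries 5hmC and reads neither 5-methylcytosine nor the number of CpG sites. Whole kidney is also a mixture of tubular, glomerular, vascular and stromal cells, and less of the mark in all cells cannot be told apart from the mark in fewer of them.

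The valleys covered 1918 kb in all and held 4344 hMeDIP and 9977 input fragments, which gave a pooled ratio of 0.317 (0.306 to 0.328). The other gaps covered 25882 kb with 224776 hMeDIP and 107077 input fragments, a pooled ratio of 1.53 (1.52 to 1.54). Per kb, hMeDIP stood at 2.27 fragments in the valleys and 8.68 in the other gaps, and input at 5.20 in the valleys and 4.14 in the other gaps. These values chose the members, so they describe the choice. The low ratio went with fewer hMeDIP fragments per kb and also with more input fragments per kb.

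**Figure D1:**
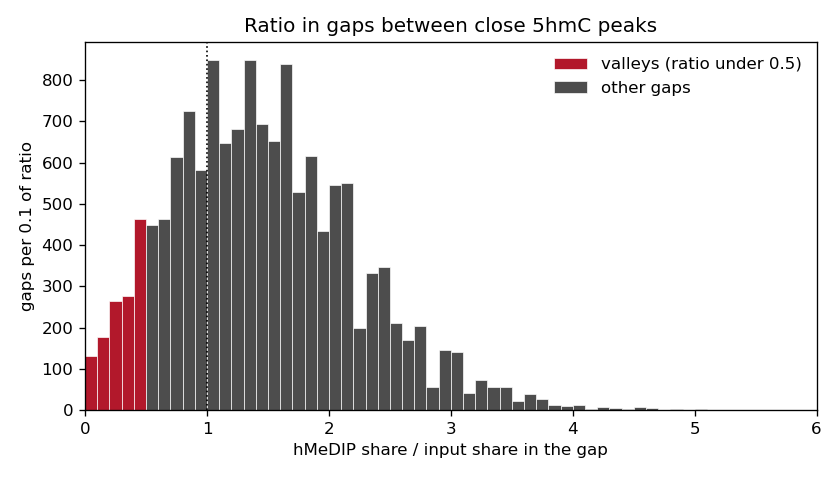
Number of gaps (vertical axis) in each 0.1 step of the ratio of hMeDIP share to input share (horizontal axis), with the 1315 valleys in red, the 12913 other gaps in grey and a dotted line at 1, the genome-wide mean. The valleys form the lower tail of 1 broad distribution, and no gap in the distribution parts them from the rest.

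Each valley rests on few fragments. The number of hMeDIP fragments per valley had a median of 3, quartiles of 2 and 4 and a maximum of 14, and that of input fragments a median of 7, quartiles of 5 and 9 and a maximum of 22. In the other gaps the median was 16 hMeDIP and 8 input fragments. A total of 353 valleys (26.8%) stood at the minimum of 5 input fragments, where no more than 3 hMeDIP fragments keep the ratio under 0.5. Only 48 valleys (3.65%) held 15 or more input fragments. The median valley had a ratio of 0.331 with quartiles of 0.208 and 0.437.

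The precision of a single valley was low. The interval of the ratio lay wholly under 1 in 296 valleys (22.5%), and in 2.08% of all 14228 gaps tested. It lay wholly under 0.5 in 15 valleys (1.14%), and in 0.105% of all gaps tested. In the remaining 1019 valleys (77.5%) the interval reached 1. The 15 valleys with an interval under 0.5 held 14 hMeDIP and 159 input fragments together, a pooled ratio of 0.0641 (0.0343 to 0.111). Both counts enter the rule, so these shares too describe the choice.

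A measure apart from the choice by ratio was had by choosing gaps on the fragments of 1 strand and counting those of the other. Peak edges had been set on the hMeDIP signal, so the counted strand is not independent of how the gaps were bounded. Choosing on the plus strand, with the same minimum and threshold on that strand alone, gave 865 valleys among 5286 gaps. Their pooled ratio was 0.304 (0.289 to 0.319) on the plus strand that chose them and 1.25 (1.20 to 1.31) on the minus strand. The other 4421 gaps had 1.29 (1.27 to 1.31) on the plus strand and 1.72 (1.69 to 1.75) on the minus strand. Choosing on the minus strand gave 887 valleys among 5320 gaps, with 0.299 (0.285 to 0.314) on the minus strand and 1.22 (1.17 to 1.28) on the plus strand. The 4433 other gaps then had 1.28 (1.26 to 1.30) on the minus strand and 1.74 (1.71 to 1.77) on the plus strand.

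On the strand that took no part in the choice, gaps chosen as valleys were therefore below the other gaps in both directions, but above 1, the mean of the genome. Most of the depth on the choosing strand was not found on the other. The gaps chosen as valleys were also narrower, with median widths of 1913 and 1842 bp against 2365 and 2362 bp. Among the 12913 other gaps the pooled ratio went from 1.07 at 500 to 999 bp to 1.62 at 2500 to 3000 bp. These gaps had to meet the input minimum, and their input went from 6.83 to 3.77 fragments per kb between the same classes. The strand that did not choose had no such minimum, so these ratios cannot show what width does there. The strands were not compared at matched width, so what width contributes to the difference was not tested. The choice by 1 strand uses fewer fragments than the choice by both, so these values are not those of the 1315 valleys. Among the 1315, 649 had a ratio under 0.5 on each strand taken alone, a count that the choice itself raises.

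**Figure D2:**
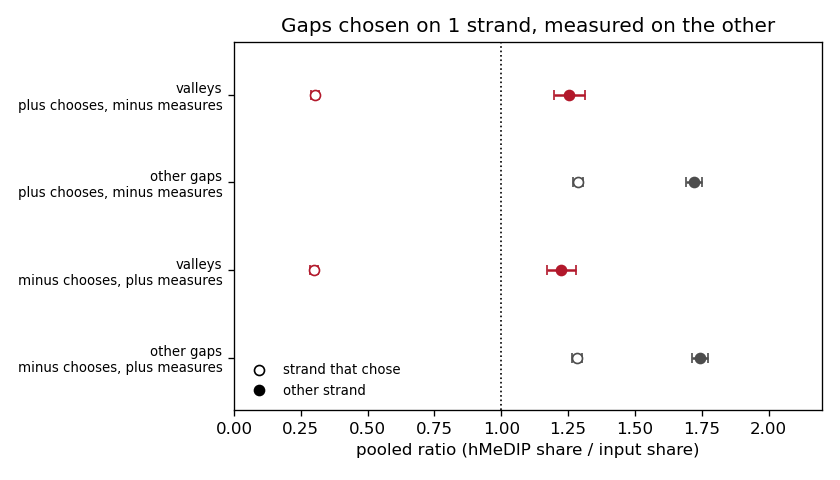
Pooled ratio (horizontal axis) with 95% counting intervals for gaps chosen as valleys (red) and for the other gaps (grey), on the strand that chose them (open symbols) and on the other strand (filled symbols). On the strand that did not choose, the valleys stand at 1.25 and 1.22, left of the other gaps at 1.72 and 1.74.

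Among gaps that met the input minimum, valleys were narrower than the other gaps. The median width was 1342 bp in valleys, with quartiles of 953 and 1886 bp, and 2031 bp in the other gaps, with quartiles of 1548 and 2504 bp. Of the 1001 eligible gaps of 500 to 999 bp, 363 (36.3%) were valleys. The share was 15.3% (414 of 2708) at 1000 to 1499 bp, 7.43% (264 of 3551) at 1500 to 1999 bp and 4.55% (164 of 3601) at 2000 to 2499 bp. At 2500 to 3000 bp it was 3.27% (110 of 3367). The share thus fell in each wider class.

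These shares are of gaps that met the input minimum, which 1001 of the 8138 gaps of 500 to 999 bp did. At 2500 to 3000 bp 3367 of 3566 did. A fixed minimum asks for denser input in a narrower gap, and denser input lowers the ratio. The widths and the fall of the share with width are therefore not independent of the rule. The share by width without the minimum was not computed. In that class input stood at 7.65 fragments per kb in the valleys and 6.83 in the other gaps. At 2500 to 3000 bp it was 4.07 in the valleys and 3.77 in the other gaps. In gaps that missed the minimum, 12999 in number, the pooled ratio was 2.09 (2.06 to 2.12) at 2.19 input fragments per kb. Input was thus denser in valleys than in other gaps in all 5 width classes, in a value that the rule uses.

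**Figure D3:**
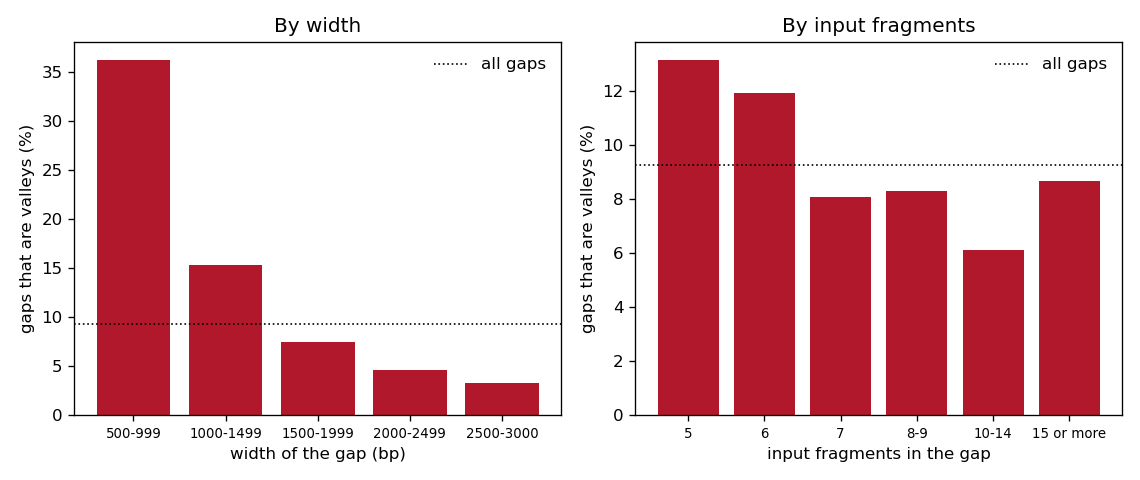
Share of eligible gaps that are valleys (vertical axis, %) by width of the gap (left) and by number of input fragments in it (right), with a dotted line at 9.24%, the share over all 14228 gaps. The share runs from 36.3% in the narrowest to 3.27% in the widest class, and from 13.1% at 5 input fragments to 6.08% at 10 to 14 and 8.65% at 15 or more.

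The surplus of input was not found on the strand left out of the choice. In valleys chosen on the plus strand, input stood at 3.35 fragments per kb on the plus strand and 1.75 on the minus strand. The other gaps had 2.74 on the plus strand and 1.94 on the minus strand. In valleys chosen on the minus strand, input was 3.40 per kb on the minus strand and 1.83 on the plus strand, while the other gaps had 2.73 on the minus strand and 1.94 on the plus strand. On the strand that did not choose, the valleys thus held less input per kb than the other gaps.

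The course of both libraries across the peak edge was followed in 100 bp steps. Inside the gaps it counts the same fragments that chose the valleys, so the levels there describe the choice. In the first 100 bp of a valley hMeDIP stood at 1.41 fragments per kb and input at 5.49. In the last 100 bp of the peak beside it hMeDIP stood at 16.8 and input at 3.43. The first 100 bp of the other gaps held 4.32 hMeDIP and 4.16 input fragments per kb, and the peaks beside them 15.5 and 3.48. At 400 to 500 bp from the edge, hMeDIP had come up to 2.68 per kb in valleys and 9.71 in the other gaps. The ratio there was 0.382 in valleys and 1.67 in the other gaps. This step counts only gaps wide enough to hold it from both edges. These are 1904 of the 2630 edges of valleys and 24550 of the 25826 edges of the other gaps, so the set of gaps changes with distance.

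Both kinds of gap were thus lowest beside the peaks and higher inward. In equal parts of each gap, valleys had a ratio of 0.292 (0.274 to 0.311) in the left part, 0.370 (0.349 to 0.392) in the middle and 0.289 (0.271 to 0.308) in the right part. The other gaps had 1.42 (1.41 to 1.44), 1.75 (1.73 to 1.77) and 1.41 (1.39 to 1.42) in the same order. Peak edges had been set on the hMeDIP signal, so the drop at the edge is not independent of how the gaps were bounded. All 27227 gaps of that length were also taken, with neither the input minimum nor the threshold on the ratio. Input was then 3.41 per kb in the first 100 bp of the gap and 3.34 in the last 100 bp of the peak. The step in input at the edge of valleys and other gaps was thus hardly seen without the rule.

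**Figure D4:**
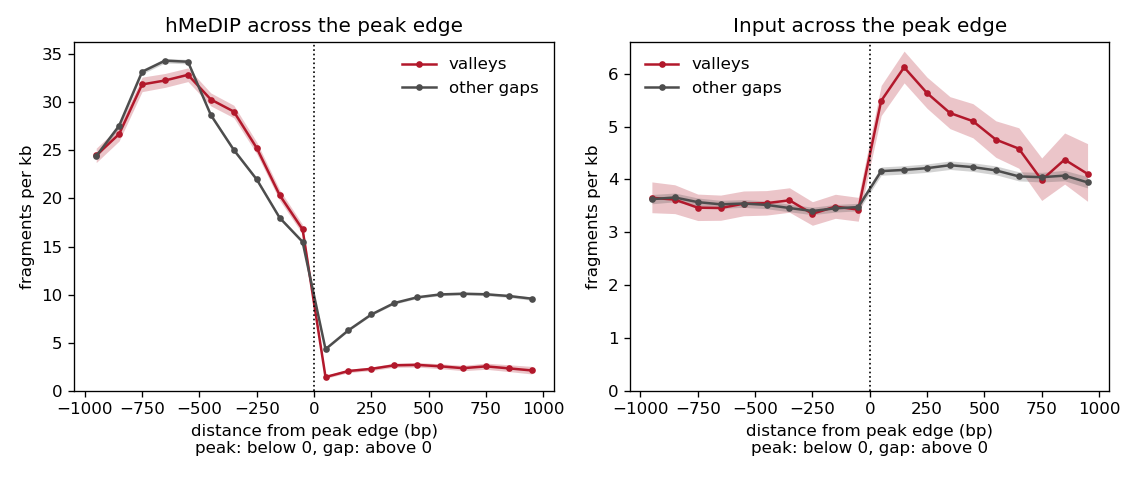
Fragments per kb (vertical axis, with 95% counting bands) of hMeDIP (left) and input (right) in 100 bp steps from the peak edge (horizontal axis, peak below 0 and gap above 0), for valleys in red and the other gaps in grey. hMeDIP falls across the edge to 1.41 in valleys and 4.32 in the other gaps, and input goes up to 5.49 and 4.16. The rule counts these fragments inside the gaps. In all 27227 gaps of that length, not drawn here, input is 3.34 per kb before the edge and 3.41 after it. Steps further from the edge leave out gaps and peaks too narrow to hold them.

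Taken whole, the peaks beside valleys did not differ in ratio from those beside the other gaps beyond counting error. The ratio in the rule does not count these fragments, but the hMeDIP fragments among them entered the calling of the peaks that bound the gaps. The peaks flanking valleys held 93432 hMeDIP and 12838 input fragments, a pooled ratio of 5.30 (5.20 to 5.40). The peaks flanking the other gaps held 989957 and 136962, a pooled ratio of 5.26 (5.23 to 5.29), and the intervals overlap. A peak with gaps of the same kind on both sides counts once for each, so these intervals are somewhat too narrow. Input stood at 3.62 fragments per kb in the peaks beside both kinds of gap. The 2630 flanks of the valleys were 2611 different peaks, of which 393 (15.1%) also flanked another eligible gap that was no valley. Those 393 were 1.66% of the peaks that flanked the other gaps.

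Flanking peaks were slightly narrower and lower in score beside valleys. The mean width of the pair of peaks had a median of 1220 bp beside valleys and 1313 bp beside the other gaps. The lower of the pair's scores in the authors' list had a median of 66.9 beside valleys and 70.0 beside the other gaps, and the higher a median of 117 and 130. The score is the peak caller's own and is used only within that list, where the lowest value is 50. The lower score was below that of the other gaps in each of the 5 width classes, from 69.2 in valleys and 71.3 in other gaps at 500 to 999 bp to 64.1 and 68.7 at 2500 to 3000 bp. The quartiles of the groups overlapped widely, at 56.9 and 89.3 beside valleys and 57.7 and 94.03 beside the other gaps.

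The side of a peak that faces a valley carried more hMeDIP than its far side. In peaks of 800 bp or more, the 400 bp next to the valley held 21.7 hMeDIP fragments per kb (21.4 to 22.0) and the 400 bp at the far end 19.3 (19.0 to 19.6). In peaks beside the other gaps the facing side held 19.2 (19.1 to 19.3) and the far side 19.9 (19.79 to 19.97). The order of the sides was thus opposite in these kinds of gap. Input differed little, at 3.56 per kb on the facing side and 3.52 on the far side of the peaks beside valleys, and at 3.54 and 3.49 beside the other gaps.

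The same order of hMeDIP per kb stood in every width class. At 500 to 999 bp the facing side held 21.1 and the far side 19.1 hMeDIP fragments per kb beside valleys, against 18.5 and 20.7 beside the other gaps. At 2500 to 3000 bp the facing side held 23.8 and the far side 19.2 beside valleys, against 19.3 and 19.7 beside the other gaps. As ratios over all widths, the valley-facing side stood at 4.44 (4.28 to 4.62) and the far side at 3.99 (3.84 to 4.15). Within each width class the ratio was also higher on the valley-facing side, but the intervals of the sides overlapped. At 2000 to 2499 bp they were 4.07 (3.66 to 4.54) and 3.88 (3.47 to 4.35). The fragments counted lie inside peaks and not in the gaps, but the position of the edge depends on the hMeDIP signal of both. Whether the placing of edges by the peak caller has a part in the difference was not tested.

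Valleys lay in surroundings with somewhat fewer peaks. The number of peaks within 50 kb of the centre of the gap had a median of 15 for valleys, with quartiles of 9 and 20, and of 17 for the other gaps, with quartiles of 11 and 22. Outside all peaks and outside the gap itself, the ratio within 50 kb had a median of 1.36 around valleys, with quartiles of 1.17 and 1.53, and of 1.43 around the other gaps, with quartiles of 1.26 and 1.60. Pooled over gaps it was 1.31 (1.306 to 1.316) around valleys and 1.39 (1.386 to 1.390) around the other gaps. These windows overlap where gaps lie close together, so fragments count more than once and the intervals of the pooled values are too narrow. The surroundings were thus above the genome mean for both kinds of gap and lower around valleys.

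The difference in ratio stood in all 5 width classes and was smallest in the narrowest. At 500 to 999 bp the median ratio of the surroundings was 1.42 for valleys and 1.48 for the other gaps, and at 2000 to 2499 bp 1.29 and 1.42. The median number of peaks was 17 around valleys and 19 around other gaps at 500 to 999 bp, and 12 and 16 at 2000 to 2499 bp. The next gaps were not low. Gaps of 500 to 3000 bp that lay 1 peak away from a valley had a pooled ratio of 1.56 (1.504 to 1.616), and those 1 peak away from the other gaps had 1.61 (1.590 to 1.625). A gap with such a neighbour on both sides counts once for each, so these intervals are too narrow as well.

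**Figure D5:**
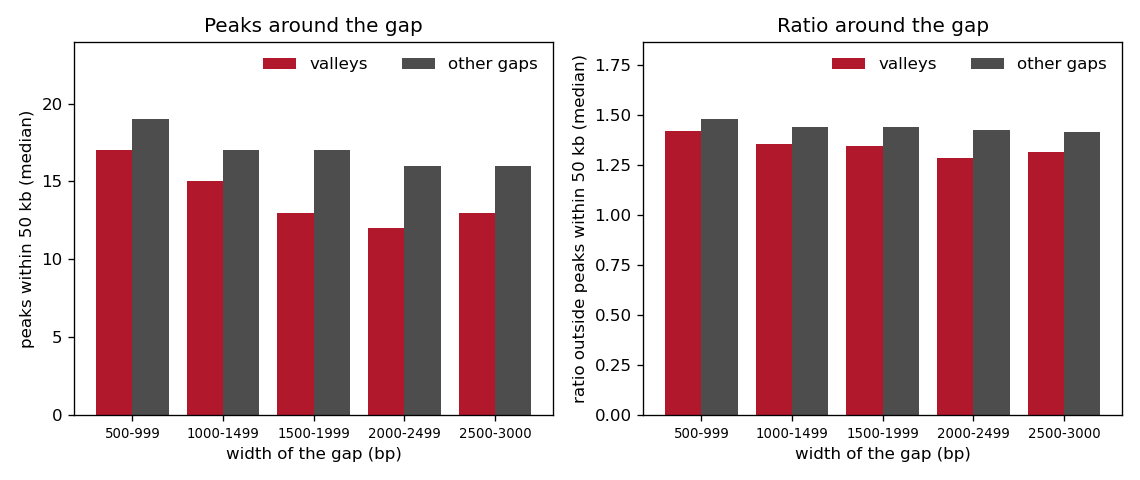
Median number of peaks within 50 kb (left) and median ratio outside peaks within 50 kb (right), on the vertical axes, by width of the gap, for valleys (red) and the other gaps (grey). Valleys are below the other gaps in all 5 classes, by 12 against 16 peaks and by 1.29 against 1.42 at 2000 to 2499 bp.

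Valleys were about as frequent next to valleys as next to the other gaps. An eligible gap was counted once for each neighbour of the kind named. Of the 431 eligible gaps 1 peak away from a valley, 38 (8.82%) were valleys too. Of the 4659 eligible gaps 1 peak away from the other gaps, 393 (8.44%) were valleys, and the share over all eligible gaps was 9.24%. Most valleys, 1278, stood alone, 17 runs held 2 in consecutive gaps and 1 run held 3.

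All autosomes held valleys in like shares. The share of eligible gaps that were valleys ran from 8.26% on chromosome 1, with 65 of 787, to 10.4% on chromosome 7, with 79 of 756. The median over the 19 chromosomes was 9.35% and the SD 0.683 percentage points. The exact binomial interval of the share held the pooled 9.24% on each of the 19 chromosomes. The spread between chromosomes was therefore within the counting error of these shares.

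The 10 valleys named first are those whose interval had the lowest upper bound, a choice that favours the lowest ratios and not the most fragments. Coordinates are on mm9 and count from 1. The first, of 1033 bp, spanned 137229796 to 137230828 of chromosome 4 and contained 0 hMeDIP and 9 input fragments, 6 of them on the plus and 3 on the minus strand. Its interval ended at 0.369. A count of 0 taken against a fixed input allows up to 3 fragments, which is a ratio of up to 0.243 here. The peaks to its left and right held 25 hMeDIP against 2 input and 29 against 3. The valley thus lay between peaks of common size, in a neighbourhood of 30 peaks within 50 kb.

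A further 6 valleys had 0 hMeDIP and 8 input fragments each, with an interval that ended at 0.426. They lay on chromosome 2, 73284275 to 73284925, on chromosome 4, 33083376 to 33084047, on chromosome 7, 80695529 to 80696813, and on chromosome 11, 3384773 to 3386015. The last ones were on chromosome 19, 7568461 to 7570021 and 55774995 to 55775599. Input came from both strands in each of these 6. The valley from 55774995 was the narrowest of the 10 named here, at 605 bp, and lay between broader peaks of 2254 and 3712 bp, which held 60 and 109 hMeDIP fragments against 10 and 8 of input.

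The others of the 10 held a few hMeDIP fragments. The stretch from 180112382 to 180114570 on chromosome 2 (2189 bp) counted 2 hMeDIP against 14 input fragments, and its ratio was 0.104 (0.0115 to 0.453). Those from 97655982 to 97657117 on chromosome 4 and from 31277298 to 31278674 on chromosome 7 each counted 1 against 11, and their ratio was 0.0662 (0.00154 to 0.455). The 20 peaks that flank these 10 valleys had ratios of 2.69 to 16.7 after adding 1 fragment to each library. In total 108 valleys (8.21%) had 0 hMeDIP fragments, and their median input was 5 fragments.

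The valleys with the most input were shallower. The valley from 70078763 to 70081276 on chromosome 14 (2514 bp) counted 14 hMeDIP against 22 input fragments, and its ratio was 0.463 (0.219 to 0.947). The valley from 134058365 to 134060642 on chromosome 6 counted 9 against 21, and its ratio was 0.312 (0.126 to 0.711). The left of its flanking peaks was 3723 bp wide and held 166 hMeDIP and 19 input fragments. On chromosome 17 the valley from 78915061 to 78917762 counted 13 against 21 and that from 83489454 to 83491990 counted 12 against 19, and on chromosome 13 the valley from 45733593 to 45735843 counted 9 against 19. In these 5 the interval stayed under 1 and in none did it lie under 0.5.

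The widest valleys came close to the upper limit of 3000 bp. One of 2996 bp on chromosome 12, from 77352017 to 77355012, counted 8 hMeDIP against 12 input fragments. A valley of 2992 bp on chromosome 14, from 51682861 to 51685852, counted 3 against 7, and another of 2992 bp on chromosome 1, from 39835574 to 39838565, counted 10 against 16. On chromosome 4 a valley of 2979 bp from 40668883 to 40671861 counted 4 against 8, and on chromosome 2 a valley of 2974 bp from 11422364 to 11425337 counted 3 against 10. The interval lay under 1 in the last of these, at 0.218 (0.0386 to 0.848), and reached 1 in the other 4.

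At the threshold, members and non-members had nearly the same values. Just inside, the valley from 41897213 to 41899392 on chromosome 9 counted 12 hMeDIP against 18 input fragments. The valleys from 145892856 to 145895102 on chromosome 3 and from 118232714 to 118235615 on chromosome 5 counted 10 against 15. All 3 had a ratio of 0.485. Just outside, the gaps from 74411751 to 74414594 on chromosome 1, from 125679291 to 125682030 on chromosome 8 and from 35329191 to 35332145 on chromosome 18 counted 11 against 16, with a ratio of 0.5005. At these depths 1 hMeDIP fragment decides on which side of the threshold a gap falls.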

How the data were processed

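Per the submitters' processing notes, the tools were CASAVA and Bowtie 1.0.0 and the genome build mm9. How reads were aligned and filtered is not given in the sources used here. Deposited position files list stretches, 350 bp long but for 18 hMeDIP and 163 input lines, each with a strand and the count of reads at that position. A line was read here, from the values alone, as 1 extended fragment, placed by its midpoint. The counts gave 11634110 hMeDIP and 8368122 input reads. Peaks were called with MACS, per the file headers, and the score is the one the authors deposited. No version, control or threshold of the caller is given in the sources used here, and the track line carries a numbered range after the library's name whose meaning is not given.

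Gaps and counts were computed with Python 3.11.15, numpy 2.4.6 and pandas 2.3.3. Intervals of ratios are exact conditional binomial (Clopper-Pearson, SciPy 1.17.1), and those of densities exact Poisson. Since reads carry no molecular identifiers, they may repeat a molecule. Ratios of single peaks had a pseudocount of 1 fragment in each library. The calculation was tested on simulated counts with more fragments per gap than these data hold. That test therefore does not show how often gaps are miscalled at the depth of these data. Named valleys are the 10 with the lowest upper bound, the 5 with most input, the 5 widest, and 3 on each side of the threshold. The rule, members and measures were chosen with earlier results of these data known. The comparison of the facing and far sides of peaks was added after seeing these data. No mm9 sequence or gene annotation was used here, so start sites, CpG content and gene lists were not analysed here. Alternatives are given in the closing section.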

Additional observations from a re-analysis of the deposited data

Results flagged for a closer look

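The number of reads per position took no part in the comparisons. In valleys, 42 of 4344 hMeDIP positions (0.967%, interval 0.698 to 1.30) held 2 or more reads, against 20 of 9977 input positions (0.2005%, 0.122 to 0.309), and this higher level in hMeDIP is why it is listed here. In the other gaps the shares were 1.28% (1.24 to 1.33) for hMeDIP and 0.285% (0.254 to 0.319) for input. No position in a valley held more than 2 reads in either library.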

How the results depend on the processing

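No paired analysis was possible because each group holds 1 library. The alternatives over start sites and CpG content were not run, since no mm9 annotation or sequence was used here. Valleys were chosen again under each alternative. Of 46 alternative values, 20 stayed within the main interval (counts within 1.5-fold), 24 moved and 2 turned. Those that turned are the pooled valley ratios on the strand that did not choose, 1.25 and 1.22, with 1.72 and 1.74 for the other gaps. The main count was 1315. It was 826 with shares relative to fragments outside peaks, all of them among the 1315, which multiplies each ratio by 1.32. The other gaps then stood at 1.97, the flanking peaks at 7.01 and the median width at 1256 bp. Leaving out 0.5 of a fragment length next to each peak gave 793 valleys, of which 609 were among the 1315, with 1.60 in the other gaps, a width of 1646 bp and 5.45 input fragments per kb. A minimum of 10 input fragments gave 262 valleys at 0.350, with 1.37 in the other gaps, 2035 bp, flanking peaks at 5.17 and 5.97 input per kb. A threshold of 0.25 gave 422 at 0.136, with 1.46 in the other gaps, 1138 bp and 5.51 input per kb. The higher-scoring 46165 autosomal peaks gave 364, with 1.87 in the other gaps and flanking peaks at 5.83. Midpoints of 150 bp fragments gave 1275 valleys, of which 1047 were among the 1315, and weighting by reads 1323, of which 1297 were. The cause of the changes was not tested. The counting interval reached 1 in 1019 of the 1315 valleys and lay wholly under 1 in 296.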

Other observations

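The single run of 3 consecutive valleys lay on chromosome 14, 52630145 to 52637876, and was picked out after its values were seen. Its valleys held 4, 3 and 3 hMeDIP fragments against 11, 6 and 5 of input.

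Strands were unequal next to peak edges in hMeDIP and not in input. Within 0.5 of a fragment length from an edge, 289 of 774 hMeDIP fragments in valleys (37.3%, interval 33.9 to 40.9) ran from the peak into the gap, against 1342 of 2659 input fragments (50.5%, 48.6 to 52.4). In the other gaps the shares were 34.2% (33.5 to 34.8) of hMeDIP and 49.95% (49.2 to 50.7) of input fragments. What the extension to 350 bp contributes to this was not tested.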
